A study of Mus musculus with 60 samples.

Results

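Proteasome subunit genes were followed in the whole blood of 60 mice. Members were all genes whose symbol in any of the 10 deposited comparison tables was Psma to Psmg followed by a number, which gave 47 of the 49315 genes in the count tables. By role, these were 8 alpha ring subunits and 7 beta ring subunits of the 20S core, the 3 immunoproteasome beta subunits Psmb8, Psmb9 and Psmb10, 6 ATPases (Psmc1 to Psmc6) and 11 further subunits of the 19S regulatory particle, 3 chaperones of 19S assembly (Psmd5, Psmd9 and Psmd10), 5 activators or inhibitors (Psme1 to Psme4 and Psmf1) and 4 chaperones of 20S assembly (Psmg1 to Psmg4). The mice were male CD2F1 animals in 10 groups of 6, and each was bled once, at its end point. They received vehicle or BIO 300, an oral powder of amorphous synthetic genistein, by gavage over 6 days. Groups given vehicle, 50, 100 or 200 mg/kg (the low, medium and high dose of the labels) were bled on Day 0, which was 24 h after dosing ended, and other mice of the same treatments on Day 1, at 48 h. On Day 1 there were also mice given vehicle or 200 mg/kg that had received 9.2 Gy of cobalt-60 total-body irradiation (TBI) 24 h before sampling. The vehicle groups served as controls in several comparisons, so those comparisons share mice. In whole blood, fewer cells of a type and less RNA per cell cannot be told apart.

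The proteasome is the protease that degrades ubiquitin-tagged proteins in the cytosol and nucleus. Its 20S core is a barrel of outer alpha rings and inner beta rings, and the catalytic sites lie on the beta subunits Psmb5, Psmb6 and Psmb7. In lymphoid cells, and in other cells exposed to interferon, these are replaced by Psmb8, Psmb9 and Psmb10 respectively, which favour peptides suited to class I antigen presentation. The 19S cap binds ubiquitin chains, unfolds the substrate with its ATPases and feeds it into the core. Psme1 and Psme2 together form the interferon-inducible activator PA28 alpha-beta, Psme3 forms the nuclear PA28 gamma, Psme4 encodes PA200, and Psmf1 encodes the inhibitor PI31. Reticulocytes, the youngest circulating red cells, are a classical source of active proteasomes and ubiquitin.

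Promoter sequences are shown for the 3 members of at least 10 CPM with the largest called changes at both higher doses on Day 1 (Psme3, Psmf1 and Psmd4) and for a pair of subunits that compete for the same position in the core (Psmb5 and Psmb8). They are RefSeq sequences on GRCm38.p6, 5′ to 3′ along the gene's strand, from the 250 bases before the start site. Capitals mark the match to 1 of 5 searched motifs. For Psmb8 and Psmf1, whose windows lie inside the annotated span of a longer transcript, 30 bases around the match are given, and for Psmb5 the 223 bases outside the annotated gene.
Psme3 (chr11:101315963-101316212, forward strand): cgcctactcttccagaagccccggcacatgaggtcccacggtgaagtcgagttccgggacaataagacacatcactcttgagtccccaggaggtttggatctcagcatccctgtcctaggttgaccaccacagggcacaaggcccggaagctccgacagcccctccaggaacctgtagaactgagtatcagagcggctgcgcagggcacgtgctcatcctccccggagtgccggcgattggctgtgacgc
Psmf1 (chr2:151741394-151741423, reverse strand): aaggctttgagaAGATAAgccctagcctgc
Psmd4 (chr3:95042615-95042864, reverse strand): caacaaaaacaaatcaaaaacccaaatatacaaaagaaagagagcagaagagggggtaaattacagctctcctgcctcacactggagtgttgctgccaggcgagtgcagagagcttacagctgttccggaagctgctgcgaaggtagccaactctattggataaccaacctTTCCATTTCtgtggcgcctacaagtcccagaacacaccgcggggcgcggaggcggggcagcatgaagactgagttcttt
Psmb5 (chr14:54618023-54618245, reverse strand): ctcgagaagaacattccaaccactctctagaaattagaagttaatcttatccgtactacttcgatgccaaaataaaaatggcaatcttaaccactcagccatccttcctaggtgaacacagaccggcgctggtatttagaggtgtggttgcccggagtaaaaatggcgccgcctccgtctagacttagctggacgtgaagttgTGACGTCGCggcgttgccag
Psmb8 (chr17:34198087-34198116, forward strand): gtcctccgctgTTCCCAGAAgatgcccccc

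The motifs were searched on both strands, and each of the windows shown held at most 1 match. TGACNNNGC, the core of the antioxidant response element bound by Nrf factors, was present in Psmb5 from base -47 to -39 and occurred in 10.2% of the 32851 RefSeq promoters. TTCNNNGAA, the STAT recognition motif, was present in Psmb8 from base -97 to -89 and in 7.02% of promoters. GAAANNGAA, an interferon-stimulated element core, was present in Psmd4 on the opposite strand from base -79 to -71 and in 7.13% of promoters. AGATAA, a site of the erythroid factor Gata1, was present in Psmf1 from base -101 to -96 and in 9.99% of promoters. A related form, TGATAA, was in 7.94% of promoters. None of the 5 motifs was in the 250 bases before Psme3. Windows were searched for 39 of the 47 members. Chromosome 18 was left out of the member search, and with it any window of Psma8 and Psmg2.

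Before any BIO 300 comparison, the members differed widely in level. Per kilobase of exon, the median over vehicle-treated mice on Day 0 was 823 CPM (counts scaled to library size with the trimmed mean of M values, TMM) per kb for Psme3, against a median of 6.06 CPM per kb over all members. The next were Psmd4, the ubiquitin receptor of the 19S cap, at 30.9 CPM per kb, Psmf1 at 24.8, Psme1 at 21.3 and Psme4 at 20.9. Among catalytic subunits, Psmb8 and Psmb10 were at 10.1 and 8.66 CPM per kb, above Psmb6 at 6.98 and Psmb5 at 6.88, and Psmb9 and Psmb7 were lowest at 4.10 and 3.26. Psmd9, Psmg3 and Psma8 were under 1 CPM per kb. Psma8, the alpha subunit of the testis, had only 380 counts over all 60 mice, whereas Psme3 had 3352346.

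Counts per mouse summed to between 15099415 and 45589415 (median 24877993.5), and all 47 members passed the count minimum in each comparison. In 8 mice spread over 7 groups, 6 hepatocyte genes (Alb, Apoa1, Ttr, Serpina1a, Fga and Fgb) summed to over 1000 CPM, up to 22280 CPM in 1 irradiated mouse, whereas no group median was over 7.08 CPM. Results that rest on these mice are given with and without them, a choice made after the data were seen. A further limit concerned scaling. For 100 and 200 mg/kg on Day 1, the median log2 fold change over all genes was -0.38 and -0.48 with TMM but -1.75 and -1.96 when libraries were scaled by total counts. Directions on Day 1 therefore depend on the scaling, and changes are best read relative to those medians. Psmb9 overlaps Tap1 in its exons, Psmb8 Gm20496, Psmd9 Gm26745, Psmb7 Nek6, Psmb5 Mir686 and Psmd13 Sirt3. Psmg3 overlaps Gm26938 on its own strand, over 280 exon bases, and Psmd1 overlaps Gm21972 and Htr2b. Psmc3 overlaps Slc39a13 and Psma4 AY074887, and Psma5, Psmd3 and Psme1 have shorter overlaps. Psme2 has a near-copy, Psme2b, which is not a member. Reads of all these genes could have been split.

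The first question was whether BIO 300 alone changed proteasome transcripts by Day 1. At 100 mg/kg, 6 of 47 members were significantly higher than in vehicle-treated mice and 0 were lower, where a significant DEG passed an adjusted p of 0.05 in edgeR's quasi-likelihood test with Benjamini-Hochberg adjustment and changed by more than 1 on the log2 scale. Among all genes tested, 18.2% were DEGs higher and 30.6% lower. At 200 mg/kg, 7 members were higher and 2 lower, against 17.3% and 30.5% of all genes. The higher members at both doses were Psme3, Psmf1, Psmd4, Psmd11, Psmb5 and Psma8, joined at 200 mg/kg by Psme4. The 2 lower members at 200 mg/kg were the 20S assembly chaperones Psmg1 and Psmg3. The heat map of all members shows the same few rows standing out in both columns.

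**Figure D1:**
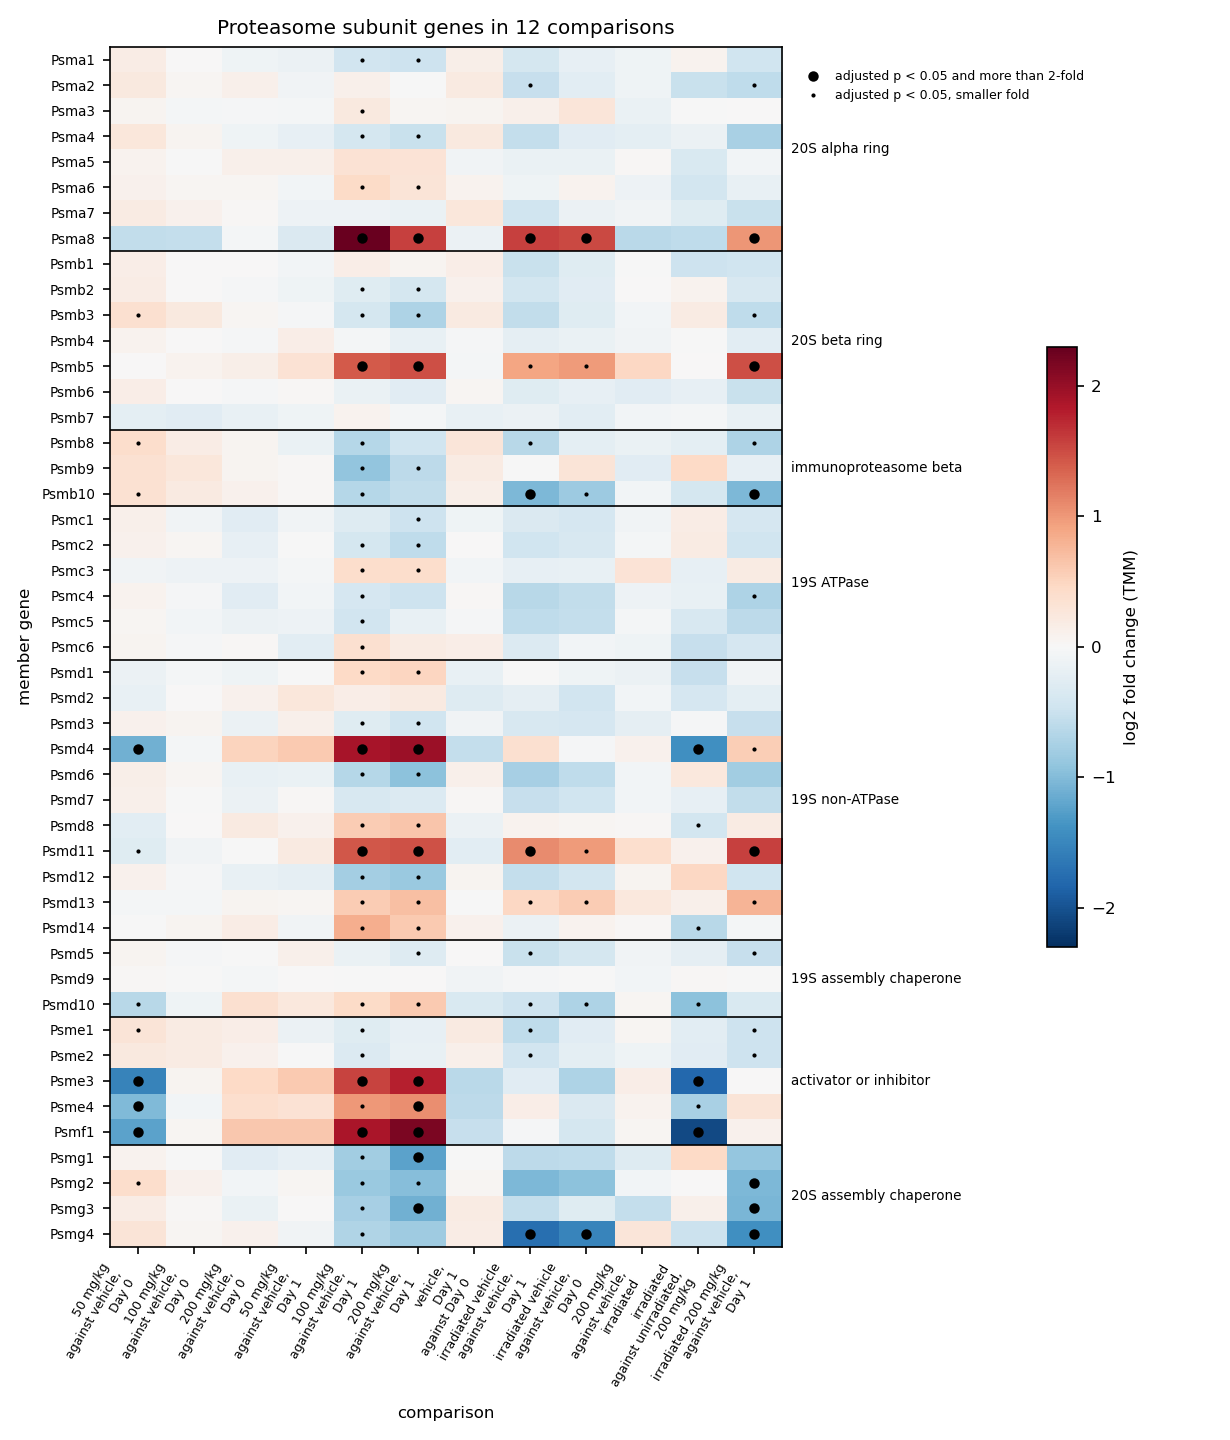
Heat map of the log2 fold change (TMM) of the 47 members, in rows ordered by role, in 12 comparisons of 6 against 6 mice, in columns. Large dots mark an adjusted p under 0.05 with more than 2-fold change and small dots an adjusted p under 0.05 with a smaller change. Psmd4, Psmd11, Psmb5, Psme3 and Psmf1 are red in both columns for the higher doses on Day 1, and the Psmg genes are blue there.

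Psme3 (chr11:101316213-101323537) had the highest median per kilobase of exon of all members in each of the 10 groups. In vehicle-treated mice on Day 1 it ranged from 1057 to 2655 CPM with a median of 1437 CPM. At 100 mg/kg it ranged from 3759 to 5821 CPM (median 3984) and at 200 mg/kg from 3415 to 6631 CPM (median 5065). All mice of both dose groups were above all vehicle-treated mice. The log2 fold change was 1.56 (SE 0.26, adjusted p = 0.000109) at 100 mg/kg and 1.79 (SE 0.26, adjusted p = 3.97e-05) at the high dose in edgeR's quasi-likelihood test.

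Psmf1 (chr2:151715812-151744186) had the largest increase at 200 mg/kg. Its range was 80.9 to 180 CPM (median 103) with vehicle, 293 to 514 CPM (median 393) at 100 mg/kg and 335 to 652 CPM (median 471) at the high dose. Neither dose group overlapped the controls. Its log2 fold change was 1.89 (SE 0.19, adjusted p = 1.36e-06) at 100 mg/kg and 2.17 (SE 0.22, adjusted p = 1.03e-06) at the high dose in the same edgeR test.

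Psmd4 (chr3:95032694-95042614) had the smallest SE of these genes. It ranged from 49.7 to 74.7 CPM (median 61.0) with vehicle, from 176 to 304 CPM (median 211) at 100 mg/kg and from 157 to 304 CPM (median 217) at the high dose. The lowest BIO 300-treated mouse thus lay far above the highest control. The log2 fold change was 1.90 (SE 0.14, adjusted p = 6.13e-08) at 100 mg/kg and 1.97 (SE 0.16, adjusted p = 8.39e-08) at the high dose with edgeR. Psme4 (chr11:30771726-30880361) was just under the fold limit at 100 mg/kg, with a log2 fold change of 0.99 (SE 0.18, adjusted p = 0.000231, edgeR), and over it at the high dose, at 1.07 (SE 0.20, adjusted p = 0.000386, edgeR). Its ranges were 78.3 to 175 CPM with vehicle, 180 to 236 CPM at 100 mg/kg and 147 to 272 CPM at the high dose, of which the last overlapped the controls. Without mouse 26, 45 or 47 the high-dose change was under the fold limit (0.95 to 1.22 over all single-mouse omissions).

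**Figure D2:**
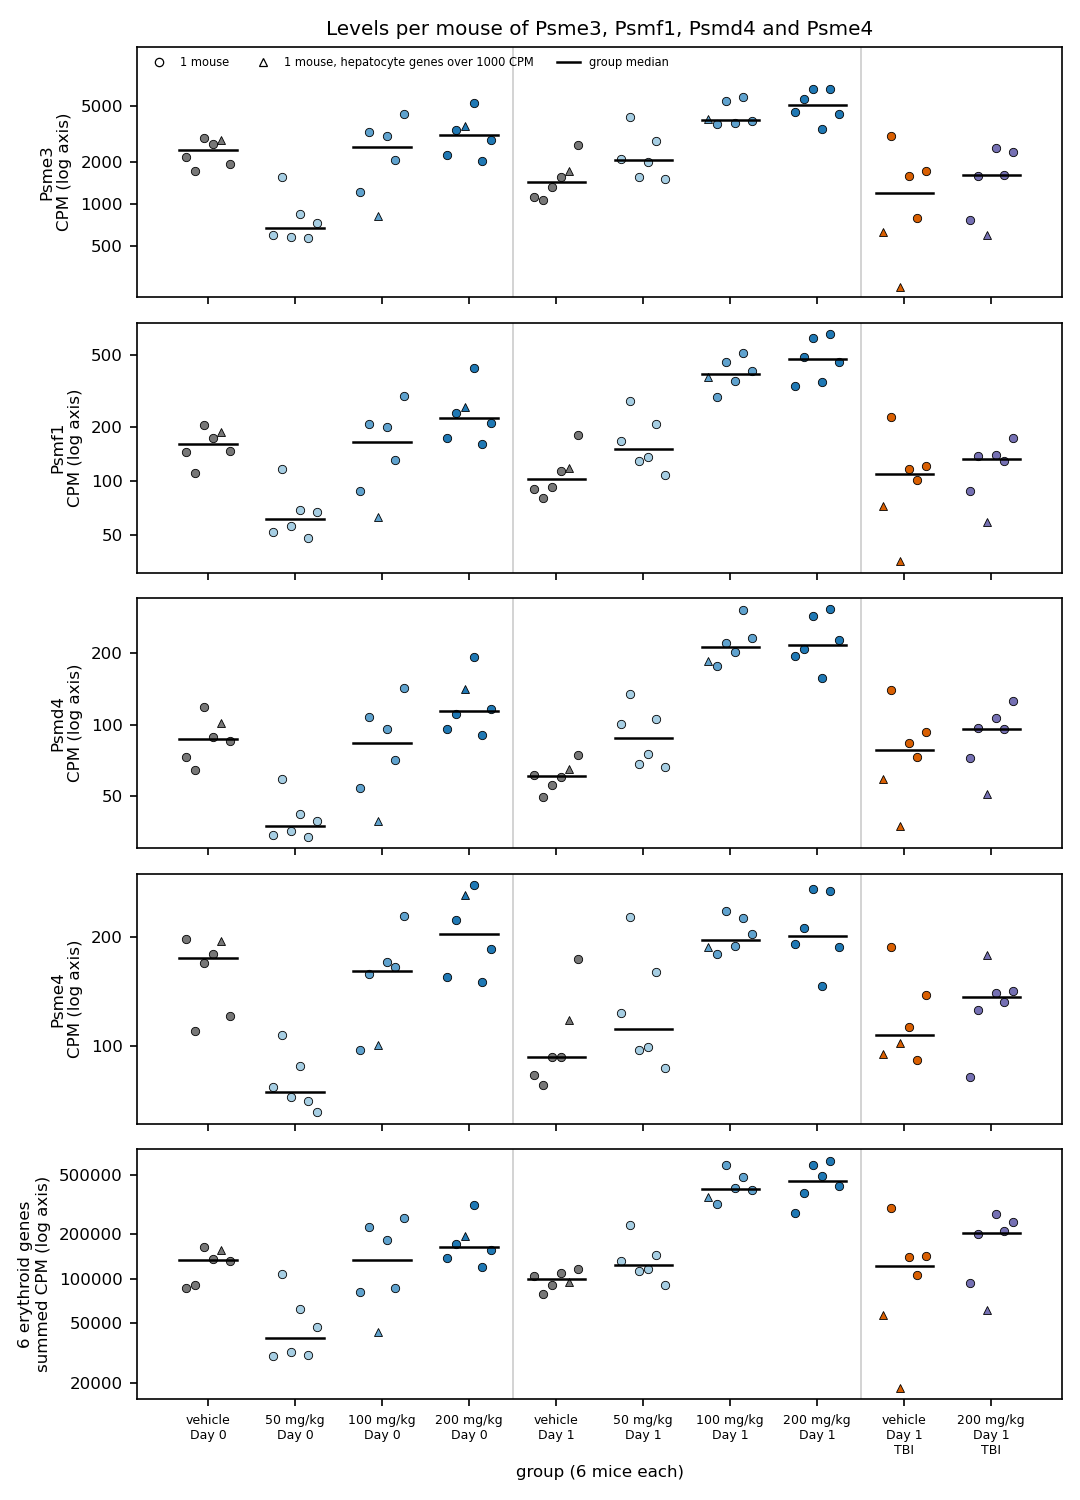
Levels of Psme3, Psmf1, Psmd4 and Psme4 in CPM (TMM over all mice) and, in the lowest panel, the summed CPM of 6 erythroid genes, on log axes, for the 10 groups of 6 mice. Circles are single mice, triangles mice with over 1000 CPM of hepatocyte genes, and lines group medians. All 5 panels have their highest medians at 100 and 200 mg/kg on Day 1, except that the highest Psme4 median is at 200 mg/kg on Day 0, and their lowest median at 50 mg/kg on Day 0.

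The red cell transcripts moved with these genes. The summed level of 6 erythroid genes (Hba-a1, Hba-a2, Hbb-bs, Hbb-bt, Alas2 and Slc4a1) was 78477 to 116771 CPM (median 99216) in vehicle-treated mice on Day 1, 316150 to 584257 CPM (median 399604) at 100 mg/kg and 275579 to 622712 CPM (median 456435) at the high dose. All 6 erythroid genes and all 6 platelet genes were DEGs higher at both doses. The median of the summed platelet genes was 2078 CPM with vehicle, 15505 CPM at 100 mg/kg and 19424 CPM at the high dose. Their part in the increases of Psme3, Psmf1, Psmd4 and Psme4 was not tested. When libraries were scaled by total counts, the log2 fold changes at 100 and 200 mg/kg shrank to 0.19 and 0.28 for Psme3, 0.50 and 0.64 for Psmf1, and 0.49 and 0.42 for Psmd4, and that of Psme4 at 200 mg/kg turned to -0.45. With that scaling 0 members were higher and 33 and 36 of 47 were DEGs lower, while the member median was -1.50 and -1.66, above the all-gene medians.

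Among the constitutive beta subunits, Psmb5 alone was a DEG. Psmb5 (chr14:54614119-54618022), which holds the chymotrypsin-like site, ranged from 5.20 to 6.52 CPM (median 5.92) with vehicle, from 11.2 to 18.8 CPM (median 14.9) at 100 mg/kg and from 11.8 to 20.5 CPM (median 15.6) at the high dose. No mouse of either dose group overlapped the controls. Its log2 fold changes were 1.41 (SE 0.13, adjusted p = 3.98e-07) and 1.47 (SE 0.14, adjusted p = 6.38e-07) with edgeR, and with total count scaling 0.0050 and -0.053. Psmb6 had log2 fold changes of -0.15 and -0.25 and Psmb7 of 0.084 and -0.051, none with an adjusted p under 0.05.

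Of the remaining ring subunits, Psma8 was a DEG at both doses from very low levels, with 0.0790 to 0.200 CPM in vehicle-treated mice, 0.455 to 1.02 CPM at 100 mg/kg and 0 to 1.08 CPM at the high dose. At 100 mg/kg it did not overlap the controls, while at 200 mg/kg 1 mouse had 0 counts and 5 were above all controls. The call at 200 mg/kg ended without mouse 26, 30 or 47 (1.15 to 1.80 over all single-mouse omissions). Changes under the fold limit went both ways. Psma6 passed the adjusted p at 0.44 and 0.29 on the log2 scale, whereas Psma1 (-0.43 and -0.48), Psma4 (-0.41 and -0.52), Psmb2 (-0.29 and -0.41) and Psmb3 (-0.40 and -0.71) passed it downwards at both doses. The median log2 fold change was 0.17 and 0.015 over the 8 alpha subunits and -0.043 and -0.17 over the 7 constitutive beta subunits.

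Within the 19S cap, Psmd11 (chr11:80428615-80473248), a subunit that stabilises the joint between cap and core, rose next to Psmd4. It ranged from 39.3 to 44.9 CPM (median 42.2) with vehicle, from 91.5 to 156 CPM (median 102) at 100 mg/kg and from 88.6 to 129 CPM (median 115) at the high dose, with no overlap. Its log2 fold changes were 1.43 (SE 0.12, adjusted p = 2.05e-07) and 1.47 (SE 0.11, adjusted p = 4.29e-08) with edgeR. Total count scaling moved them to 0.019 and -0.072. Psmd14, the deubiquitinase of the cap, passed the adjusted p at 0.83 and 0.61, and Psmd8, Psmd13 and Psmd1 at 0.47 to 0.69. Psmd12 (-0.79 and -0.85), Psmd6 (-0.66 and -0.95) and Psmd3 (-0.27 and -0.45) passed it downwards. The 6 ATPases had log2 fold changes between -0.58 and 0.41 over both doses, with medians of -0.33 and -0.32. At an adjusted p under 0.05, 3 of them were lower at 100 mg/kg and 2 at 200 mg/kg. Only Psmc3 was higher at that adjusted p at both doses (0.41 and 0.41), with Psmc6 higher at 100 mg/kg alone (0.36).

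Counting any change with an adjusted p under 0.05, 16 members were higher and 19 lower at 100 mg/kg, beside 25% and 40.6% of all genes. At 200 mg/kg there were 14 in each direction, beside 23.6% and 39.9%. The member medians of -0.11 and -0.16 lay above the all-gene medians.

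The chaperones of 20S assembly were lower, 4 of 4 at an adjusted p under 0.05 with 100 mg/kg and 3 of 4 with 200 mg/kg. With 100 mg/kg Psmg1, Psmg2, Psmg3 and Psmg4 had log2 fold changes of -0.68 to -0.85. At 200 mg/kg Psmg1 fell to 0.434 to 2.14 CPM (median 0.934) from 2.03 to 3.10 CPM (median 2.54) with vehicle, which was a log2 fold change of -1.23 (SE 0.35, adjusted p = 0.00670, edgeR). Psmg3 was 0.806 to 1.86 CPM (median 1.07) against 2.32 to 3.09 CPM (median 2.71), a log2 fold change of -1.10 (SE 0.24, adjusted p = 0.00125, edgeR). The Psmg3 groups did not overlap and the Psmg1 groups did in at least 1 mouse. Psmg2 passed the adjusted p at -0.99 and Psmg4 did not. The partners Psmd5, Psmd9 and Psmd10 of the 19S cap had log2 fold changes between -0.29 and 0.60.

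The immunoproteasome subunits were lower at 100 mg/kg. Psmb8 (chr17:34197721-34201454) was 34.4 to 46.8 CPM (median 42.0) with vehicle, 17.3 to 33.5 CPM (median 23.9) at 100 mg/kg and 12.5 to 49.3 CPM (median 27.5) at the high dose. Every 100 mg/kg mouse was below every control, whereas at 200 mg/kg 5 mice were below and 1 above them all. Its log2 fold change was -0.66 (SE 0.17, adjusted p = 0.00313) at 100 mg/kg and -0.46 (SE 0.24, adjusted p = 0.106) at the high dose with edgeR.

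Psmb9 (chr17:34181987-34187764) was 14.6 to 20.1 CPM (median 17.4) with vehicle, 6.58 to 14.6 CPM (median 8.30) at 100 mg/kg and 4.77 to 18.7 CPM (median 10.4) at the high dose. The 100 mg/kg mice lay below all controls, the highest by a narrow margin. The log2 fold change was -0.90 (SE 0.19, adjusted p = 0.000788) at 100 mg/kg and -0.61 (SE 0.25, adjusted p = 0.0467) at the high dose with edgeR. Psmb10 (chr8:105935735-105938444) was 13.6 to 17.4 CPM with vehicle, 6.56 to 15.1 CPM at 100 mg/kg and 2.82 to 16.6 CPM at the high dose, and 5 of 6 mice at each dose were below all controls. Its log2 fold changes were -0.66 (SE 0.18, adjusted p = 0.00639) and -0.56 (SE 0.28, adjusted p = 0.0962) with edgeR. With total count scaling all 3 were between -2.03 and -2.28 at 100 mg/kg.

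**Figure D3:**
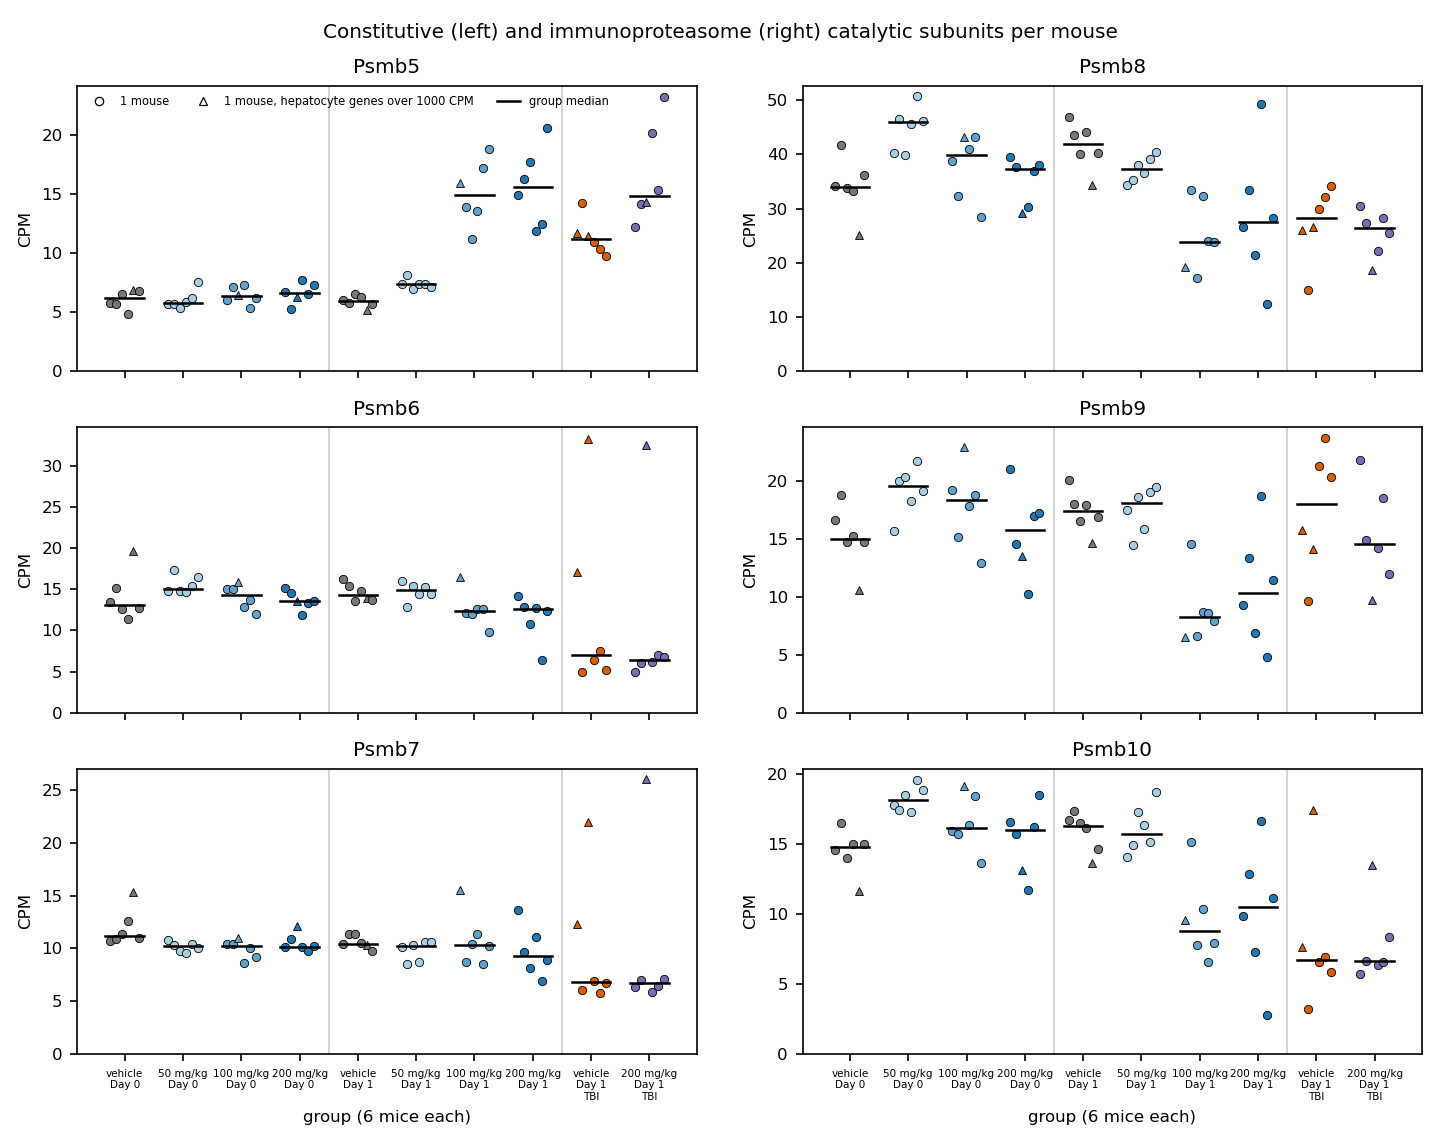
Levels in CPM (TMM over all mice) of the constitutive catalytic subunits Psmb5, Psmb6 and Psmb7 (left) and of the immunoproteasome subunits Psmb8, Psmb9 and Psmb10 that replace them (right), in 10 groups of 6 mice. Circles are single mice, triangles mice with over 1000 CPM of hepatocyte genes, and lines group medians. Psmb5 is high in both higher-dose Day 1 groups and both irradiated groups, and Psmb6 and Psmb7 are low in irradiated mice other than those drawn as triangles.

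B cell, T cell and monocyte genes were lower in the same groups, while NK cell genes were not called. Of 6 neutrophil genes, 2 were DEGs higher at 100 mg/kg (-0.37 to 1.32 over the list). At the high dose 0 neutrophil genes were called (-0.42 to 0.97). The summed level of 6 B cell genes was 731 to 1130 CPM with vehicle, 206 to 506 CPM at 100 mg/kg and 121 to 404 CPM at the high dose, and that of 6 T cell genes was 285 to 359, 64.3 to 132 and 38.3 to 161 CPM. All 6 genes of each list were DEGs lower at both doses, and none was without counts in a group. The single 200 mg/kg mouse with the highest Psmb8, Psmb9 and Psmb10, mouse 46, had 404 CPM of B cell genes, the highest of its group, but 133 CPM of T cell genes, less than mice 43 (161 CPM) and 44 (139 CPM). Mouse 47, lowest in all 3, was lowest in both lists, at 121 and 38.3 CPM. Monocyte genes were lower too, with 3 of 4 DEGs lower at 100 mg/kg (-0.73 to -1.57 over the list) and 1 of 4 at the high dose (-0.55 to -1.24). Their sum was 216 to 354 CPM with vehicle, 80.0 to 151 CPM at 100 mg/kg and 38.6 to 241 CPM at the high dose, where mouse 46 was highest and mouse 47 lowest. Of 4 NK cell genes 0 were DEGs at either dose, with log2 fold changes of -0.77 to -0.17 at 100 mg/kg and 0.045 to 0.70 at the high dose. The NK cell sum at the high dose was also highest in mouse 46 (322 CPM) and lowest in mouse 47 (27.9 CPM). The part of these cell types in the immunoproteasome values was not tested. PA28 alpha-beta changed little. Psme1 and Psme2 were at -0.28 and -0.31 at 100 mg/kg, both with an adjusted p under 0.05, and within 0.20 of 0 at the high dose.

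Leaving out the mice with over 1000 CPM of hepatocyte genes gave 7 higher and 0 lower members at 100 mg/kg, where Psme4 passed the fold limit at 1.06. At the high dose it gave 7 higher and 2 lower, but there it left out only control mouse 29. Mouse 43 of that dose group, at 770 CPM of hepatocyte genes, was under the limit and stayed in. Without mouse 43 alone, 12 members were DEGs in all.

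On Day 0 the picture differed by dose. At 50 mg/kg, 4 members were DEGs lower and 0 higher, against 4.38% and 0.127% of all genes. These were Psme3, Psmf1, Psmd4 and Psme4. The direction of the calls turned with total count scaling, which gave 0 DEGs lower and 5 higher (Psmb3, Psmb8, Psmb9, Psmb10 and Psmg2). Psme3 was 1726 to 2943 CPM (median 2427) in vehicle-treated mice and 570 to 1563 CPM (median 665) at 50 mg/kg, with a log2 fold change of -1.54 (SE 0.27, adjusted p = 0.00312, edgeR). Psmf1 was 111 to 205 CPM (median 160) and 48.5 to 117 CPM (median 61.9), a log2 fold change of -1.23 (SE 0.21, adjusted p = 0.00295, edgeR). Of these groups only those of Psmf1 overlapped, by 1 mouse.

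Psmd4 was 64.8 to 119 CPM (median 86.9) with vehicle and 33.8 to 59.0 CPM (median 37.6) at 50 mg/kg, a log2 fold change of -1.11 (SE 0.17, adjusted p = 0.00255, edgeR). Psme4 was 110 to 198 CPM (median 175) and 65.5 to 107 CPM (median 74.7), a log2 fold change of -1.01 (SE 0.16, adjusted p = 0.00265, edgeR). In both, all mice at 50 mg/kg were below all controls. Mouse 2 had the highest level of all 4 genes in the 50 mg/kg group and also the highest erythroid and platelet sums there. Without mouse 17, the control with over 1000 CPM of hepatocyte genes, Psme3, Psmf1 and Psmd4 were DEGs lower and Psme4 was at -0.95. Leaving out any 1 of 7 mice, among them mouse 17, put Psme4 under the fold limit (-0.95 to -1.11 over all single-mouse omissions).

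At any fold, 5 members were higher and 6 lower, beside 4.21% and 9.87% of all genes. The higher ones were Psmb8 (0.41), Psmg2 (0.40), Psmb3 (0.38), Psmb10 (0.35) and Psme1 (0.31), and the lower ones outside the DEGs were Psmd10 (-0.64) and Psmd11 (-0.28). Psmb10 rose from 11.6 to 16.5 CPM with vehicle to 17.3 to 19.5 CPM, with no overlap. The erythroid sum was 87005 to 162442 CPM with vehicle and 29990 to 107563 CPM at 50 mg/kg, and 2 of its 6 genes and 4 of 6 platelet genes were DEGs lower. Their part was not tested. With total count scaling, the all-gene median was 0.69 instead of 0.029, and the log2 fold changes of Psme3, Psmf1, Psmd4 and Psme4 were -0.91, -0.58, -0.44 and -0.34, while at any fold 41 members were higher and 4 lower.

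No member was a DEG at 100 or 200 mg/kg on Day 0, at 50 mg/kg on Day 1, between vehicle-treated mice of Day 1 and Day 0, or between irradiated mice given 200 mg/kg and vehicle. In each of these 5 comparisons the share of all genes called was 0% with edgeR, and DESeq2's Wald test called 0 members too. At an unadjusted p under 0.05 edgeR gave 2, 5, 8, 13 and 1 of 47 members in that order. Psme3 ranged from 815 to 4427 CPM at 100 mg/kg on Day 0 and from 1511 to 4159 CPM at the low dose on Day 1, each overlapping its controls.

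Whether the effect of a dose differed between days was tested as an interaction. At 50 mg/kg, 4 members had a higher fold change on Day 1 than on Day 0 and 0 a lower one, beside 6.73% and 0.961% of all genes. At 100 mg/kg there were 7 and 1, beside 15.7% and 26.3%, and at 200 mg/kg 5 and 0, beside 13.1% and 23.6%. Psme3, Psmf1 and Psmd4 were among them at every dose, with differences in log2 fold change of 1.37 to 2.16. The difference of Psmb5 was 1.34 at 100 mg/kg and 1.36 at the high dose, and that of Psmd11 1.52 and 1.49. The only lower one was Psmb9 at 100 mg/kg (-1.15), and it and Psme4 at that dose were not called without the mice with over 1000 CPM of hepatocyte genes. At 200 mg/kg, leaving those mice out gave 5 higher and 2 lower, the latter being Psmg3 (-1.11) and Psmg1 (-1.09). With total count scaling these counts were 1 higher and 28 lower, 0 and 34, and 0 and 35.

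The ratio of an immunoproteasome subunit to the subunit it replaces is taken within a library and does not depend on scaling. Over 3 ratios and 12 comparisons, 13 of 36 tests had an adjusted p under 0.05 in 2-sided exact permutation tests, 9 of them without overlap between groups. Ratios of other gene pairs were not tested, so these counts have no background share beside them and cannot be called particular to these subunits. The smallest p that 6 against 6 mice allow is 0.002165, which is 0.00866 after adjustment over the 36 tests. Psmb8 counts were a median of 7.05 times Psmb5 counts in vehicle-treated mice on Day 1. The median was 1.47 times at 100 mg/kg and 1.57 times at the high dose. These counts were not corrected for exon length, which is 3381 bases for Psmb8 and 899 for Psmb5. They therefore do not show which of the transcripts was more abundant.

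On the log2 scale, Psmb8 to Psmb5 was 2.62 to 2.96 with vehicle on Day 1, 2.11 to 2.498 at the low dose, 0.27 to 1.27 at 100 mg/kg and 0 to 2.06 at the high dose. All 3 dose groups lay wholly below the controls. The mean differences were -0.47, -2.10 and -2.03, each with an adjusted exact permutation p of 0.00866. The 50 mg/kg group on Day 1 thus differed in this ratio from vehicle of that day, although none of its members was a DEG. Its values lay within the range of vehicle-treated mice on Day 0 (1.86 to 2.87). Vehicle-treated mice of Day 1 were 0.34 above those of Day 0 (adjusted exact permutation p = 0.0871). On Day 0 the ratio at 50 mg/kg was 0.42 above vehicle (adjusted exact permutation p = 0.0501).

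**Figure D4:**
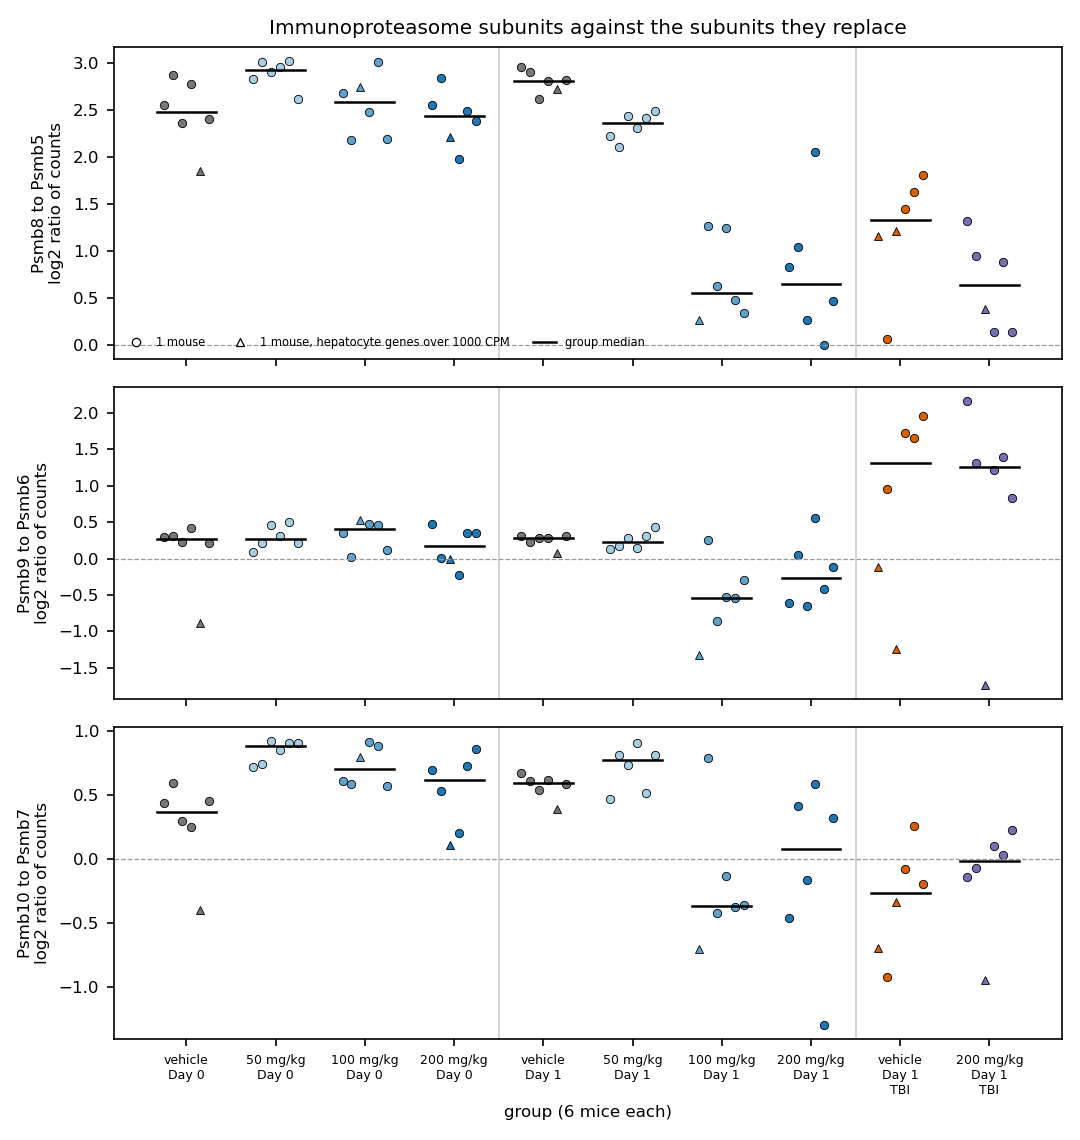
Log2 ratio of counts of Psmb8 to Psmb5, Psmb9 to Psmb6 and Psmb10 to Psmb7 in single mice (circles, or triangles for mice with over 1000 CPM of hepatocyte genes), with group medians as lines, for the 10 groups of 6 mice. Psmb8 to Psmb5 has medians of 2.36 to 2.93 in the Day 0 groups and the vehicle and 50 mg/kg groups of Day 1, and of 0.56 to 1.33 in the other 4 groups.

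Psmb10 to Psmb7 was higher at the low dose on Day 0, by 0.57 without overlap (adjusted exact permutation p = 0.00866), and by 0.45 at 100 mg/kg (adjusted exact permutation p = 0.0213). The latter call ended without mice 9 and 17, at 0.31 (adjusted exact permutation p = 0.0504). On Day 1 the differences were -0.77 at 100 mg/kg and -0.67 at the high dose, with means of -0.20 and -0.10 against 0.57 (adjusted exact permutation p = 0.0455 and 0.0480). The 100 mg/kg call ended without mice 29 and 37 (-0.71, adjusted exact permutation p = 0.0857) and with medians in place of means (-0.97, adjusted exact permutation p = 0.0871), and at the high dose it ended with medians (-0.52, adjusted exact permutation p = 0.0540). Psmb9 to Psmb6 differed at 100 mg/kg on Day 1, where its mean was -0.55 against 0.25 (adjusted exact permutation p = 0.0213), and not at the high dose, where it was -0.20 (adjusted exact permutation p = 0.113).

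The effect of irradiation was assessed in vehicle-treated mice 24 h after TBI. Against vehicle on Day 1, 2 members were DEGs higher and 2 lower, beside 19.6% and 16.4% of all genes. Psmd11 and Psma8 were higher, and Psmg4 and Psmb10 lower. With RLE size factors or DESeq2 the counts were 3 and 1, Psmb5 being added and Psmb10 lost, and with total count scaling 1 and 3. Psmb10 was also lost with filterByExpr and in 1 fit of all 60 mice. Psmd11 was 72.2 to 138 CPM (median 85.9) against 39.3 to 44.9 CPM (median 42.2), without overlap, a log2 fold change of 1.09 (SE 0.16, adjusted p = 0.000142, edgeR). Psmb5 passed the adjusted p just under the fold limit. It was 9.75 to 14.2 CPM (median 11.2) against 5.20 to 6.52 CPM, without overlap, a log2 fold change of 0.91 (SE 0.13, adjusted p = 0.000163, edgeR).

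Psmg4 was 0.222 to 2.11 CPM (median 0.520) after TBI and 2.33 to 3.10 CPM (median 2.61) with vehicle, a log2 fold change of -1.73 (SE 0.46, adjusted p = 0.00814, edgeR). Psmb10 was 3.21 to 17.4 CPM (median 6.75) against 13.6 to 17.4 CPM (median 16.3), a log2 fold change of -1.03 (SE 0.31, adjusted p = 0.0150, edgeR). In 5 irradiated mice Psmb10 was below all controls, and in mouse 51 it was above them. Its call ended without mouse 50, 52 or 54, and its log2 fold change was -0.87 to -1.39 when single mice were left out. The Psmd11 call ended without mouse 50 (0.95). Psmb8 was lower under the fold limit (-0.63, SE 0.18, adjusted p = 0.0138, edgeR), in all 6 mice, and Psmb9, at 9.63 to 23.7 CPM, was not called (-0.014, adjusted p = 0.962, edgeR). At any fold 4 members were higher and 8 lower, beside 24.4% and 22.4% of all genes. Psme3, Psmf1 and Psmd4 spread widely after TBI, Psme3 from 252 to 3072 CPM, and none was called.

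These counts depended on the mice with over 1000 CPM of hepatocyte genes, which were mice 49 and 51 among the irradiated and mouse 29 among the controls. Without them, 2 members were higher and 14 lower, where 20.7% and 23.5% of all genes were. The member median moved from -0.37 to -0.71. The added lower members were Psmg2 (-1.87), Psmg1 (-1.84), Psmd6 (-1.63), Psma4 (-1.39), Psmc4 (-1.36), Psmd7 (-1.32), Psmd12 (-1.32), Psmb6 (-1.25), Psmc5 (-1.15), Psmd3 (-1.12), Psmc1 (-1.12) and Psmb3 (-1.03), and they came from the core, both parts of the cap and the chaperones. Psmd11 was 1.23. As an example, Psmd6, a scaffold subunit of the cap, was 19.9 CPM in mouse 51, 7.98 CPM in mouse 49 and 3.01 to 4.15 CPM in the other irradiated mice, against 10.5 to 12.5 CPM in the controls. The 6 hepatocyte genes summed to 22280 CPM in mouse 51 and to 5362 CPM in mouse 49. Leaving out mouse 51 alone gave 12 DEGs in all.

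**Figure D5:**
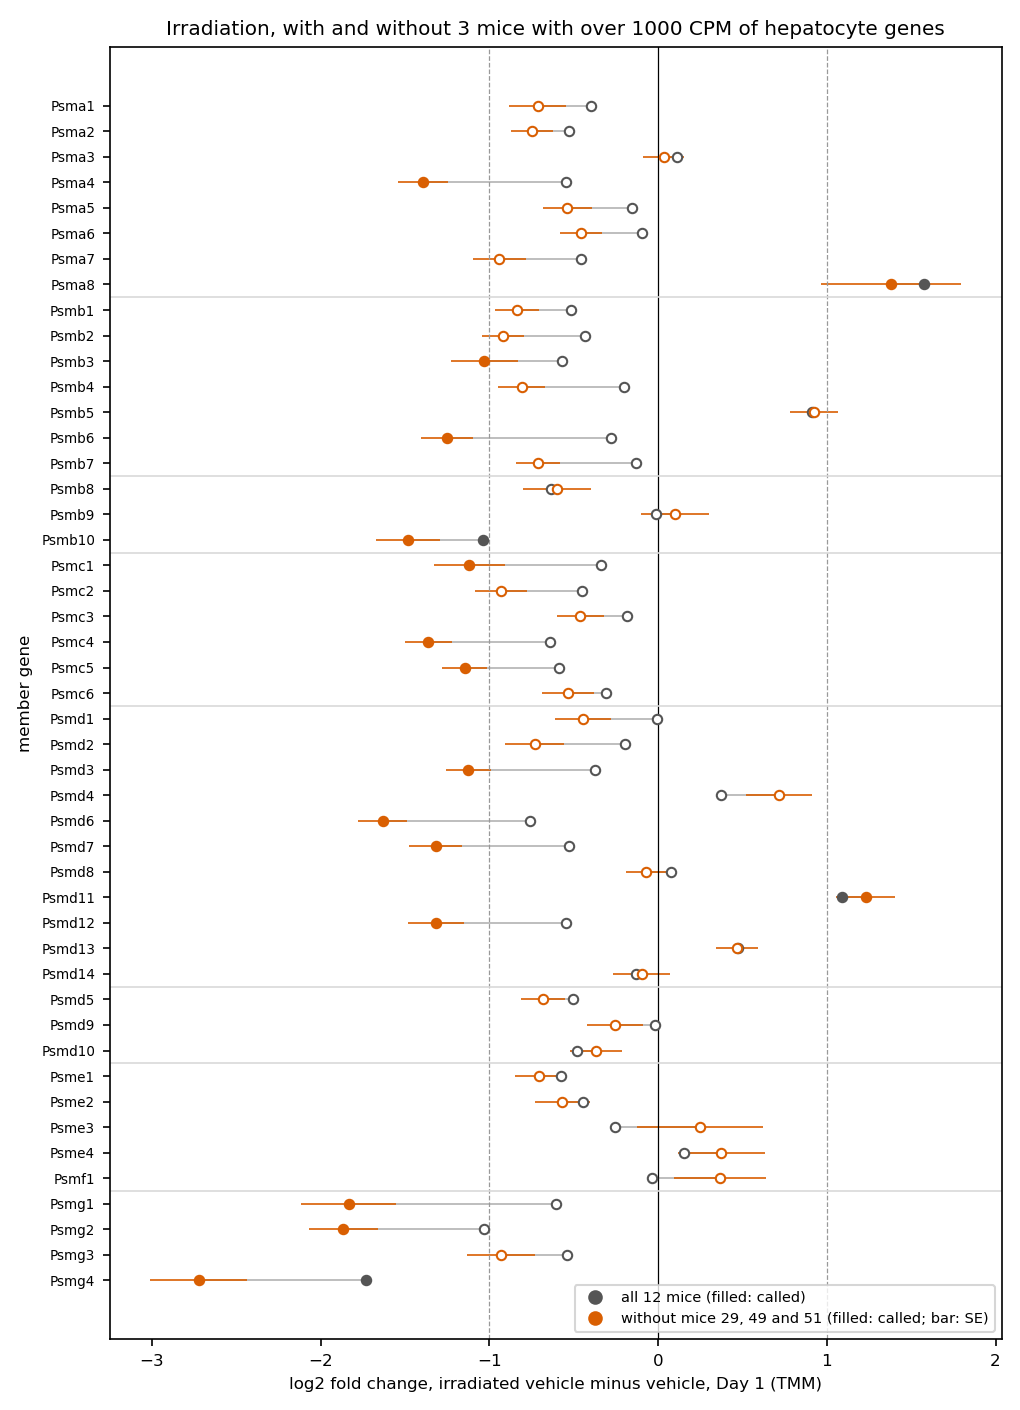
Log2 fold change (TMM) of the 47 members between irradiated and unirradiated vehicle-treated mice on Day 1, with all 12 mice (grey) and without mice 29, 49 and 51 (orange, with SE bars). Filled symbols passed the adjusted p and the fold limit. Most members move left without those mice, and 16 orange symbols are filled against 4 grey ones.

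Against vehicle on Day 0, 1 member was a DEG higher (Psma8, 1.52) and 1 lower (Psmg4, -1.51), beside 15.1% and 11.8% of all genes. The Psma8 call rested on very few counts. Without mice 17, 49 and 51 there were 2 and 13. At any fold there were 4 higher and 3 lower with all mice, beside 19.6% and 16.8%. In irradiated mice given 200 mg/kg, compared with unirradiated vehicle-treated mice of Day 1, 3 members were higher and 4 lower, beside 19.6% and 16.9%. Psmd11 (1.57, SE 0.22, adjusted p = 8.29e-05) and Psmb5 (1.47, SE 0.17, adjusted p = 2.67e-05) led the increases with edgeR, with ranges of 75.7 to 184 CPM and 12.2 to 23.2 CPM and no overlap. Psma8 followed at 1.007, a call that ended in 10 of 12 fits that each left out 1 mouse (0.80 to 1.17). Psmg4 (-1.40), Psmg3 (-1.05), Psmb10 (-1.04) and Psmg2 (-1.03) were lower. Of these, Psmg3 was lost without mouse 58, 59 or 60, Psmb10 without mouse 55, 56, 58 or 59, and Psmg2 without mouse 26, 55, 58 or 59. Psmb10 was below all controls in all 6 mice, at 5.75 to 13.5 CPM. Without mice 29 and 57 the counts were 2 and 12. With DESeq2 or RLE size factors on all mice they were 3 and 1, and with total count scaling 0 and 11.

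In the ratios, Psmb8 to Psmb5 differed from vehicle-treated mice of Day 1 by -1.59 in irradiated mice given vehicle and by -2.17 in those given 200 mg/kg, without overlap (adjusted exact permutation p = 0.00866 for each). Psmb10 to Psmb7 differed by -0.90 and -0.70, also without overlap (adjusted exact permutation p = 0.00866 for each). Psmb9 to Psmb6 had medians of 1.31 and 1.26 in the irradiated groups against 0.28, with 3 irradiated mice below 0, which were the mice with over 1000 CPM of hepatocyte genes (mice 49, 51 and 57, at -0.12, -1.24 and -1.74). With all mice the difference for irradiated vehicle was 0.58 (adjusted exact permutation p = 0.455). Without those mice and mouse 29 it was 1.29 and, with 200 mg/kg, 1.10, without overlap (adjusted exact permutation p = 0.0381 and 0.0357).

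Blood cell genes differed between irradiated and unirradiated vehicle-treated mice as well. All 6 B cell and all 6 T cell genes were DEGs lower, 3 of 4 NK cell genes were lower, and all 6 neutrophil and all 6 platelet genes were higher. Monocyte genes went both ways, with 1 of 4 a DEG higher and 2 lower (-2.53 to 1.18 over the list). The B cell sum was 49.5 to 127 CPM against 731 to 1130 CPM, the T cell sum 22.3 to 92.8 CPM against 285 to 359 CPM, and the neutrophil sum 1172 to 6593 CPM against 424 to 687 CPM. The erythroid sum ranged from 18402 to 298203 CPM, and none of its genes was called. The part of these shifts in the members' values was not tested.

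Among mice given 200 mg/kg, irradiated mice had 3 members lower and 0 higher than unirradiated mice of Day 1, beside 5.73% and 14.9% of all genes. Psmf1 was 59.4 to 172 CPM (median 133) against 335 to 652 CPM, a log2 fold change of -2.08 (SE 0.28, adjusted p = 0.000190, edgeR). Psme3 was 599 to 2524 CPM (median 1597) against 3415 to 6631 CPM, at -1.81 (SE 0.38, adjusted p = 0.00336, edgeR). Psmd4 was 51.0 to 126 CPM (median 95.9) against 157 to 304 CPM, at -1.41 (SE 0.24, adjusted p = 0.000870, edgeR). None of these groups overlapped, and without mouse 57 the 3 log2 fold changes were -1.79, -1.49 and -1.13. At any fold 7 members were lower and 0 higher, beside 9.58% and 17.6%. With total count scaling Psmf1 was at -1.22, Psme3 at -1.02 and Psmd4 at -0.54, while 3 members were DEGs higher. In this comparison 4 of 6 erythroid genes were lower, and the erythroid sum was 61702 to 273357 CPM after TBI. B cell genes were lower in 5 of 6 and T cell genes in 1 of 6, while 5 of 6 neutrophil genes were higher. Of 4 monocyte genes, 1 was higher and 1 lower. No NK cell gene and no platelet gene was called, the platelet genes being at -0.33 to 0.12. The part of these cell types in the members' values was not tested.

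The effect of 200 mg/kg also differed between irradiated and unirradiated mice when that difference was tested, with 3 members lower and 0 higher, beside 10% and 19.5% of all genes. They were Psma8 (-1.99, SE 0.75, adjusted p = 0.0436), Psmf1 (-1.91, SE 0.44, adjusted p = 0.00213) and Psmd4 (-1.65, SE 0.33, adjusted p = 0.000789) with edgeR. Psma8 rested on very few counts, 380 over all mice. With filterByExpr, which tested 46 members, 2 were lower. Without mice 29, 49, 51 and 57 there were 5 lower, with Psme3 (-1.70) and Psme4 (-1.04) added, and 7 higher, among them Psmg4 (1.99), Psmg2 (1.71), Psmg1 (1.67) and Psmb10 (1.03). With total count scaling 20 were higher and 0 lower.

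As a share of all counts, the members took a median of 0.401% in vehicle-treated mice on Day 0 and 0.347% on Day 1, 0.345% at 100 mg/kg and 0.359% at the high dose on Day 1, and 0.230% and 0.235% in the irradiated groups. The total was close between the unirradiated groups of Day 1 while its makeup differed. Psme3 alone took 0.206% with vehicle, 0.254% at 100 mg/kg and 0.280% at the high dose, and the members other than Psme3 together 0.141%, 0.0902% and 0.0863%. The 3 immunoproteasome subunits took 0.0109%, 0.00211% and 0.00289%, and 0.00608% and 0.00444% in the irradiated groups. The lowest total was at 50 mg/kg among Day 0 groups, at 0.298%, where Psme3 was at 0.126%.

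Genes that work with the proteasome were read as a list of 33, of which 32 were tested. At 100 mg/kg on Day 1, 9 were DEGs higher and 4 lower, beside 18.2% and 30.6% of all genes. At 200 mg/kg there were 7 and 4, beside 17.3% and 30.5%. Those higher at both doses included the polyubiquitin gene Ubb (2.12 and 2.20), the cap-bound deubiquitinase Usp14 (1.69 and 1.63) and the class I light chain B2m (1.49 and 1.59). The lower ones were the peptide transporter genes Tap1 (-1.83 and -1.43) and Tap2 (-1.66 and -1.58), the class I transactivator Nlrc5 (-2.02 and -1.40) and the trimming peptidase Erap1 (-1.09 and -1.02). Of the 7 class I peptide loading genes on the list, 3 were DEGs lower and 1 higher at both doses. Tapbp, H2-K1 and H2-D1 were not called. At 50 mg/kg on Day 0, 0 were higher and 2 lower, among them Ubb (-1.39), beside 0.127% and 4.38% of all genes.

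After TBI, B2m (1.48) and Nfe2l2 (1.00), an activator of proteasome genes under oxidative stress, were higher and Rps27a (-1.37) lower than in vehicle-treated mice of Day 1. Among mice given 200 mg/kg, irradiated mice had 5 list genes higher and 5 lower, beside 14.9% and 5.73% of all genes. The higher ones included Tap1 (1.82), Tap2 (1.47) and Irf1 (1.17), and the lower ones Ubb (-1.59), Rps27a (-1.29) and Usp14 (-1.06). The background shares of all genes are those given for the members in the same comparisons.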

How the data were processed

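The authors extracted RNA from PAXgene blood. Per the labels and methods, reads were trimmed (Trimmomatic 0.36), mapped to GRCm38 (STAR 2.5.2b) and assigned to genes (Subread 1.5.2), and the deposited counts are not normalized. The library is described as stranded, ribosome- and globin-depleted total RNA in the methods but as poly(A) selected in the labels, and the strand setting of the counting was not given in the sources used here. Doses in mg/kg come from the methods. The deposited comparison tables also hold the authors' normalized signal (counts divided by a size factor), used here only for the gene symbols beside it, and the authors' DESeq2 log2 fold changes and p-values, which were not used.

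All genes with at least 10 counts summed over the mice compared were fitted per pair of groups with edgeR 4.0.16 (quasi-likelihood test, TMM, R 4.3.3, limma 3.58.1), with Benjamini-Hochberg adjustment over all genes tested. SE is the log2 fold change divided by the square root of F. Interactions were contrasts over 4 groups. Printed CPM, and overlap between groups, use TMM over all 60 mice. Ratios were tested by exact permutation (scipy 1.17.1). Exon lengths and coordinates are from GENCODE M21. DESeq2 1.42.0 was an alternative, and the edgeR script was tested on simulated data. The lowest chi-square per gene between mice of a group was 10.8, above sampling noise.

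Members and gene lists were chosen with earlier results of these data known. By rule, values were given for Psmb5 to Psmb10, Psme1, Psme2 and, in each comparison, the 3 members with the largest called increase and the 3 with the largest called decrease that averaged 10 CPM or more in a group. Other members were named after their values were seen. Some genes of the list that works with the proteasome are counted but not reported here by name.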

Additional observations from a re-analysis of the deposited data

Results flagged for a closer look

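In 19 of 160 groups of 6 values, the highest or lowest mouse stood apart from the others by Dixon's criterion. Chance gives about 1 in 20 for independent sets of values. These sets shared mice and genes, so their count cannot be read against that rate. Mouse 2 was high in the 50 mg/kg group of Day 0 for Psme3 (1563 CPM, median of the others 600), Psmf1 (117 against 56.1 CPM), Psmd4 (59.0 against 35.8 CPM) and the share of counts on the members (0.364% against 0.298%). Mouse 57, irradiated and given 200 mg/kg, was high for Psmb6 (32.5 against 6.11 CPM), Psmb7 (26.0 against 6.43 CPM) and Psmb10 (13.5 against 6.58 CPM), and low for the log2 ratios of Psmb9 to Psmb6 (-1.74 against 1.30) and Psmb10 to Psmb7 (-0.95 against 0.032). In the irradiated vehicle group, Psmb10 was high in mouse 51 (17.4 against 6.59 CPM), Psmd11 was high in mouse 50 (138 against 81.7 CPM), and mouse 50 had a low log2 ratio of Psmb8 to Psmb5 (0.066 against 1.45). Mouse 17, vehicle on Day 0, was low for Psmb9 to Psmb6 (-0.89 against 0.30) and Psmb10 to Psmb7 (-0.40 against 0.44), and mouse 29, vehicle on Day 1, for Psmb9 to Psmb6 (0.070 against 0.29). Mice 17, 29, 51 and 57 are among the 8 with over 1000 CPM of hepatocyte genes. The remaining values were Psmd11 in mouse 42 (156 against 101 CPM) and Psmb9 in mouse 38 (14.6 against 7.96 CPM) at 100 mg/kg on Day 1, Psmb5 in mouse 32 (8.14 against 7.34 CPM) at 50 mg/kg on Day 1, and Psme2 in mouse 14 (22.1 against 17.1 CPM) with vehicle on Day 0.

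Effects that differed between days or with irradiation were tested as interactions with edgeR's quasi-likelihood test, and each difference in log2 fold change had an adjusted p under 0.05. At 50 mg/kg the fold change was higher on Day 1 than on Day 0 for Psme3 (by 2.16), Psmf1 (1.85), Psmd4 (1.72) and Psme4 (1.34). At 100 mg/kg it was higher for Psma8 (2.80), Psmd4 (1.95), Psmf1 (1.86), Psmd11 (1.52), Psme3 (1.495), Psmb5 (1.34) and Psme4 (1.06), and lower for Psmb9 (-1.15). At 200 mg/kg it was higher for Psmf1 (1.58), Psmd4 (1.49), Psmd11 (1.49), Psme3 (1.37) and Psmb5 (1.36). The effect of 200 mg/kg was lower in irradiated than in unirradiated mice for Psma8 (-1.99), Psmf1 (-1.91) and Psmd4 (-1.65). Total count scaling turned the differences of Psmb5 and Psme4 at 100 mg/kg negative.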

How the results depend on the processing

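Scaling by total counts gave 33 and 36 DEGs among the members for 100 and 200 mg/kg on Day 1, 5 for irradiated against unirradiated at 200 mg/kg, 11 for irradiated 200 mg/kg against vehicle, and 29, 34, 35 and 20 for the interactions of 50, 100 and 200 mg/kg with day and of 200 mg/kg with irradiation. Without the fold limit the counts were 11 at 50 mg/kg on Day 0, 35 and 28 at 100 and 200 mg/kg on Day 1, 12 and 7 for irradiated vehicle against Day 1 and Day 0, 7 for irradiated against unirradiated at 200 mg/kg, 16 for irradiated 200 mg/kg against vehicle, and 13, 32, 17 and 5 for the interactions. For irradiated 200 mg/kg against vehicle, RLE and DESeq2 gave 4 and filterByExpr 3, and DESeq2 gave 5 for the irradiation interaction. Without the mice with over 1000 CPM of hepatocyte genes, irradiated vehicle gave 16 and 15, irradiated 200 mg/kg 14 and the irradiation interaction 12. Leaving out 1 mouse gave 2 to 12 for irradiated vehicle against Day 1 (lowest without mouse 50, highest without 51), 2 to 7 against Day 0 (highest without 51), 3 to 15 for irradiated 200 mg/kg against vehicle (lowest without 58, highest without 57), 7 to 12 for 200 mg/kg on Day 1 (highest without 43), 6 to 8 for 100 mg/kg, 3 to 4 for 50 mg/kg on Day 0 and 3 at 200 mg/kg with and without irradiation. The other counts in all were within 1.5 times the main count, but their split between higher and lower could turn. At 50 mg/kg on Day 0, 0 higher and 4 lower became 5 and 0 with total counts, and for irradiated vehicle against Day 1, 2 and 2 became 3 and 1 with RLE and DESeq2 and 1 and 3 with total counts.

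Of the ratios, Psmb9 to Psmb6 without those mice was -0.010 and -0.10 at 100 and 200 mg/kg on Day 0, -0.011 between vehicle groups, 1.29 and 1.28 for irradiated vehicle, -0.19 between irradiated groups, 1.58 between 200 mg/kg groups and 1.10 for irradiated 200 mg/kg, and with medians -0.087 at 200 mg/kg on Day 0 and -0.044 between irradiated groups. Psmb10 to Psmb7 was 0.31 at 100 mg/kg on Day 0, -0.71 at 100 mg/kg on Day 1 and 0.13 between 200 mg/kg groups without those mice, and -0.97 and -0.52 on Day 1 with medians, and apart from the difference between 200 mg/kg groups, which was not called with all mice, each of these calls was lost. Psmb8 to Psmb5 at 50 mg/kg on Day 0 was 0.42 with a pseudocount of 1 and 0.45 with medians, and -0.083 at 100 mg/kg without those mice. Without the largest gene in the denominator the mean share was 0.431%, 0.350% and 0.468% for vehicle, 50 and 200 mg/kg on Day 0 and 0.420%, 0.400% and 0.411% for 50, 100 and 200 mg/kg on Day 1.

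Log2 fold changes of single members changed sign 29 times. These were Psmb5 at 50 mg/kg on Day 0 (RLE -0.049, DESeq2 -0.052, filterByExpr -0.025, 1 fit of all mice -0.012), Psmb7 there (total counts 0.46), Psmb7 at 100 mg/kg (total counts -1.31, without those mice -0.046) and 200 mg/kg (DESeq2 0.010, filterByExpr 0.056), Psmb5, Psmd11 and Psme4 at 200 mg/kg (total counts -0.053, -0.072 and -0.45), Psmb9 after TBI (RLE 0.071, DESeq2 0.073, filterByExpr 0.074, 1 fit 0.011, without those mice 0.10), and between the 200 mg/kg groups with total counts Psmb6 (0.91), Psmb7 (1.006), Psmb8 (0.61), Psmb10 (0.50), Psme1 (0.66) and Psme2 (0.63), with no filter Psmb6 (0.0075) and Psmb7 (0.13), and Psmb7 with filterByExpr (0.0096) and 1 fit (0.013). Total counts also gave -0.17 for Psmb5 and -0.32 for Psme4 in the 100 mg/kg by day interaction. The causes were not tested. Leaving out 1 mouse reversed Psmb5 at 50 mg/kg (-0.071 to 0.034), Psmb7 at 100 (-0.048 to 0.15) and 200 mg/kg (-0.16 to 0.033), Psmb9 after TBI (-0.12 to 0.11), and between the 200 mg/kg groups Psmb5 (-0.044 to 0.23), Psmb6 (-0.83 to 0.098), Psmb7 (-0.50 to 0.20), Psmb8 (-0.28 to 0.13) and Psme2 (-0.31 to 0.019). No paired analysis was possible because the groups share no replicate numbers. Depth limits Psma8, which had fewest counts.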

Other observations

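Single mice tracked several members at once. Irradiated vehicle-treated mouse 50 had the highest Psme3 (3072 CPM), Psmf1 (225 CPM), Psmd4 (140 CPM), Psmd11 (138 CPM) and Psmb5 (14.2 CPM) of its group and the lowest Psmb8 (14.9 CPM), Psmb9 (9.63 CPM), Psmb10 (3.21 CPM), Psmb6 (4.95 CPM) and Psmd6 (3.01 CPM). Its erythroid sum of 298203 CPM and its platelet sum of 23967 CPM were also the highest of the group. At 200 mg/kg on Day 1, mouse 47 had the highest Psme3 (6631 CPM), Psmf1 (652 CPM) and Psmd4 (304 CPM) and the lowest Psmb8 (12.5 CPM), Psmb9 (4.77 CPM) and Psmb10 (2.82 CPM). Its erythroid sum (622712 CPM) was the highest of its group, and its platelet sum (21278 CPM) was below that of mouse 45 (21738 CPM). Mice 47 and 50 were picked after their values were seen, and no cause was tested.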
